A study of Mus musculus with 27 samples.

Results

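The comparison described here asks whether 24(S)-saringosterol, a sterol found in plants and algae, changed the same genes in microglia as in hepatocytes. It uses 12 of the 27 RNA-seq libraries of the series, all of primary mouse cells, with 3 libraries in each of 4 groups. Microglia, the resident macrophages of the brain, were shaken off mixed glial cultures, and they received either 10 µM saringosterol or its ethanol vehicle for 24 h. Hepatocytes, the metabolic cells of the liver, were grown on collagen-coated plates and received the same dose or vehicle for the same time. All 4 groups were kept in serum-free medium during treatment. The medium of the microglia was based on DMEM/F12 with albumin, insulin, selenite, transferrin and M-CSF, and that of the hepatocytes was Williams' E medium without those additions, so medium and cell type cannot be told apart. The labels give no strain, age or sex and leave unsaid if replicates are different animals or cultures. The p-values below therefore measure the spread among libraries, which may be technical.

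As background, cells hold their cholesterol level with a pair of opposed systems. The transcription factor SREBP2 turns on the enzymes of cholesterol synthesis and genes of sterol uptake when membrane sterol is low, and sterols that accumulate keep it inactive in the endoplasmic reticulum. The liver X receptors (LXR) are nuclear receptors that bind oxidised sterols, and they turn on genes that export cholesterol and genes that make and desaturate fatty acids, these in part through Srebf1. In macrophages, microglia included, LXR is also known to dampen inflammatory genes, whereas in liver it is known for driving fatty acid synthesis. The series title names lipid homeostasis and inflammatory pathways, and their dependence on the cell type, as the subject of the study.

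The libraries held 30295862 to 41040268 reads in genes, and where a gene had no read the upper limit was 3 counts, which is 0.0731 to 0.099 CPM (counts scaled to equal library size), counting error only. On plain totals, macrophage markers summed to 43600 to 44160 CPM in saringosterol-treated microglia and 43540 to 45490 CPM in vehicle-treated microglia. In hepatocytes they summed to 351.5 to 380.6 CPM with saringosterol and 341.4 to 372.6 CPM with vehicle, nearly all of it Cd68, while the macrophage receptor Csf1r averaged 0.568 CPM with saringosterol and 0.692 CPM with vehicle. Hepatocyte markers summed to 10910 to 11380 CPM in saringosterol-treated and 11300 to 11480 CPM in vehicle-treated hepatocytes, and to 75.7 to 86.8 CPM in saringosterol-treated and 111.1 to 131.7 CPM in vehicle-treated microglia, mostly Ass1, with Ttr, Tat, Cps1 and Serpina1a at 0 in both microglial groups. All 11 hepatocyte markers averaged at least 1 CPM in both hepatocyte groups. Among them Tat averaged 4.49 CPM with saringosterol and 5.54 CPM with vehicle, and Cps1 11.2 and 13 CPM. The microglial libraries thus carried general macrophage markers, which do not tell microglia from other macrophages, and the hepatocyte libraries carried hepatocyte markers. Astrocyte markers, the other glia of the mixed culture, summed to 29.1 to 36.1 CPM in saringosterol-treated and 46.6 to 49.7 CPM in vehicle-treated microglia, with 3 of the 7 at 1 CPM or more on average. Oligodendrocyte lineage markers summed to 69 to 74.8 CPM in saringosterol-treated and 78.3 to 84.8 CPM in vehicle-treated microglia, with 6 of the 7 at 1 CPM or more and most of it Mbp, and Olig1 and Pdgfra fell in microglia. Kupffer cell markers, the macrophages of the liver, summed to 1.91 to 2.01 CPM in saringosterol-treated and 1.92 to 3.66 CPM in vehicle-treated hepatocytes. Markers of cholangiocytes, the cells of bile ducts, summed to 613 to 708 CPM in saringosterol-treated and 625 to 655 CPM in vehicle-treated hepatocytes, with 5 of the 6 at 1 CPM or more and most of it Spp1 and Sox9. In microglia that list summed to 8859 to 9371 CPM with saringosterol and 9236 to 9999 CPM with vehicle, nearly all of it Spp1. The part that these other cells have in the results was not tested, and in such bulk RNA fewer cells of a type and less RNA per cell cannot be told apart. Hepatocyte vehicle replicate 2 stood apart from the other hepatocyte libraries on the second principal component, at -16.6 against -3.38 to 7.66, and several results below are also given without it.

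To show the letters through which these factors are known to act, the promoter windows of 5 genes that the results below turn on are printed here from RefSeq on the build GRCm38.p6, from 250 bases before to 50 bases after the annotated start, 5′ to 3′ on the strand of the gene. Capitals mark a match, on either strand, to the direct repeat that LXR is known to bind (GGTNA followed, after 5 bases of any kind, by GGTNA) in Abca1 and Srebf1, to TCACNCCAC (the sterol response element that SREBP is known to bind) in Hmgcs1, and to a core of the interferon response element (GAAA followed, after 2 bases of any kind, by GAAA) in Isg15 and Rsad2. The first motif is held by 0.718%, the second by 1.24% and the third by 3.44% of 32851 promoter windows. A match is a description of these letters and no evidence of binding.
Abca1 (chr4:53159846-53160145, minus strand): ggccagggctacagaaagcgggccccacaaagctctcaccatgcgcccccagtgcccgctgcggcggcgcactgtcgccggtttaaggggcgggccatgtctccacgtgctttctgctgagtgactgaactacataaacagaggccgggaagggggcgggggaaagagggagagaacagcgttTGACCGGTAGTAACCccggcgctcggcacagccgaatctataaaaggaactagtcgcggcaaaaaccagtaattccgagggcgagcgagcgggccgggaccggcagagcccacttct
Srebf1 (chr11:60210422-60210721, minus strand): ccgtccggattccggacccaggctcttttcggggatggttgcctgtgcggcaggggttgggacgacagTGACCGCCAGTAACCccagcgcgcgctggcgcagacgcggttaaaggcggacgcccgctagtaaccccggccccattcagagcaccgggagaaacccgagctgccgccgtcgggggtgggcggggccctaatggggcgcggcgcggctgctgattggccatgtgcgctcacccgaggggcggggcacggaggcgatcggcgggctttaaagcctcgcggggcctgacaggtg
Hmgcs1 (chr13:119690101-119690400, plus strand): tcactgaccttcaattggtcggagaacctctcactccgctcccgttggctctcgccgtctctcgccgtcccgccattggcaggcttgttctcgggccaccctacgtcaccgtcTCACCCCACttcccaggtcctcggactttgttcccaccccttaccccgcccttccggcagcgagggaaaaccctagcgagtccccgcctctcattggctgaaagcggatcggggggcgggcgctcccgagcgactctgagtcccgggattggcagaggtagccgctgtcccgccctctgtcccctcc
Isg15 (chr4:156200769-156201068, minus strand): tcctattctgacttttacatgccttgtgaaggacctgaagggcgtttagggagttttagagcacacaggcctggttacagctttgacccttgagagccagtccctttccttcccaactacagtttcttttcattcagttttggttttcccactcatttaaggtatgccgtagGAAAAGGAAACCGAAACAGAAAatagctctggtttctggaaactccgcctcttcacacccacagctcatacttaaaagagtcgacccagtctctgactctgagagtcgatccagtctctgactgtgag
Rsad2 (chr12:26456403-26456702, minus strand): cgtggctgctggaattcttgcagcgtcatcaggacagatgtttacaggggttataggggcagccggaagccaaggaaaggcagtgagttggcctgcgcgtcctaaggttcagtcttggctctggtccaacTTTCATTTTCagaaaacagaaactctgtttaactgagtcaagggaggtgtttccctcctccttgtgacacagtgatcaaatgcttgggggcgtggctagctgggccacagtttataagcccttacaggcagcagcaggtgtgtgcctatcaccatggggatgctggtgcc
The capitals in Isg15 hold 3 overlapping matches. Of the genes in the lists used below that matched a RefSeq promoter by symbol, 2 of 10 LXR targets held the LXR repeat, 1 of 16 cholesterol synthesis genes held the sterol element, and 9 of 13 interferon-stimulated genes held the interferon element.

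The response to saringosterol differed between the cell types for a minority of genes. In 1 fit of the 12 libraries by edgeR's quasi-likelihood test, with a gene called at an adjusted p under 0.05 (Benjamini-Hochberg over 17874 genes), saringosterol changed 1143 genes in microglia (384 higher and 759 lower, or 2.15% and 4.25%, together 6.39% of those tested) and 65 in hepatocytes (15 higher and 50 lower, or 0.0839% and 0.28%, together 0.364%). The difference between the 2 responses, the microglial log2 change minus the hepatocyte one and called the response difference below, was called for 373 genes (2.09%). A positive response difference means that the gene moved up more, or down less, in microglia. Of the 373, 308 were called in microglia alone among the single cell types, 8 in hepatocytes alone and 45 in neither. Of the 1143 genes called in microglia, 823 had no called response difference, so that a call in microglia without one in hepatocytes is not by itself a difference between them. The counts moved with single libraries of either cell type. Leaving out 1 library gave 260 response differences without microglial vehicle replicate 2 and 780 microglial calls without microglial vehicle replicate 3. Without hepatocyte vehicle replicate 2 the hepatocyte calls numbered 512 and the response differences 597, of which 317 were among the 373. Hepatocyte calls also numbered 169 without saringosterol-treated microglial replicate 3 and 164 without saringosterol-treated hepatocyte replicate 3.

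Of the 373 response differences, 137 were positive (0.766% of genes tested) and 236 negative (1.32%), but this split is no stable property of the data. The share of positive ones was 36.7% with TMM scaling and 53.3% with DESeq2's size factors (201 positive and 176 negative), and it was 61% without hepatocyte vehicle replicate 2 (364 positive and 233 negative). Because a gene that 1 cell type hardly transcribes cannot show responses in both, most values below are of the 11127 genes that averaged at least 1 CPM over the 6 libraries of each cell type, for which 332 response differences (2.98%) were called, 127 positive (1.14%) and 205 negative (1.84%). Among these, 33 genes were called in the same direction in both cell types (29 lower and 4 higher) and 3 in opposite directions. Of the 33 genes that moved the same way, 9 also had a called response difference. Over all genes tested, expressed in both or not, the counts were the same 3 and 33, and without hepatocyte vehicle replicate 2 they were 29 and 80. Counts of list members below stand beside calls for 2.09% (response difference), 6.39% (microglia) and 0.364% (hepatocytes) of all genes tested. No list was tested for an excess over these shares.

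**Figure D1:**
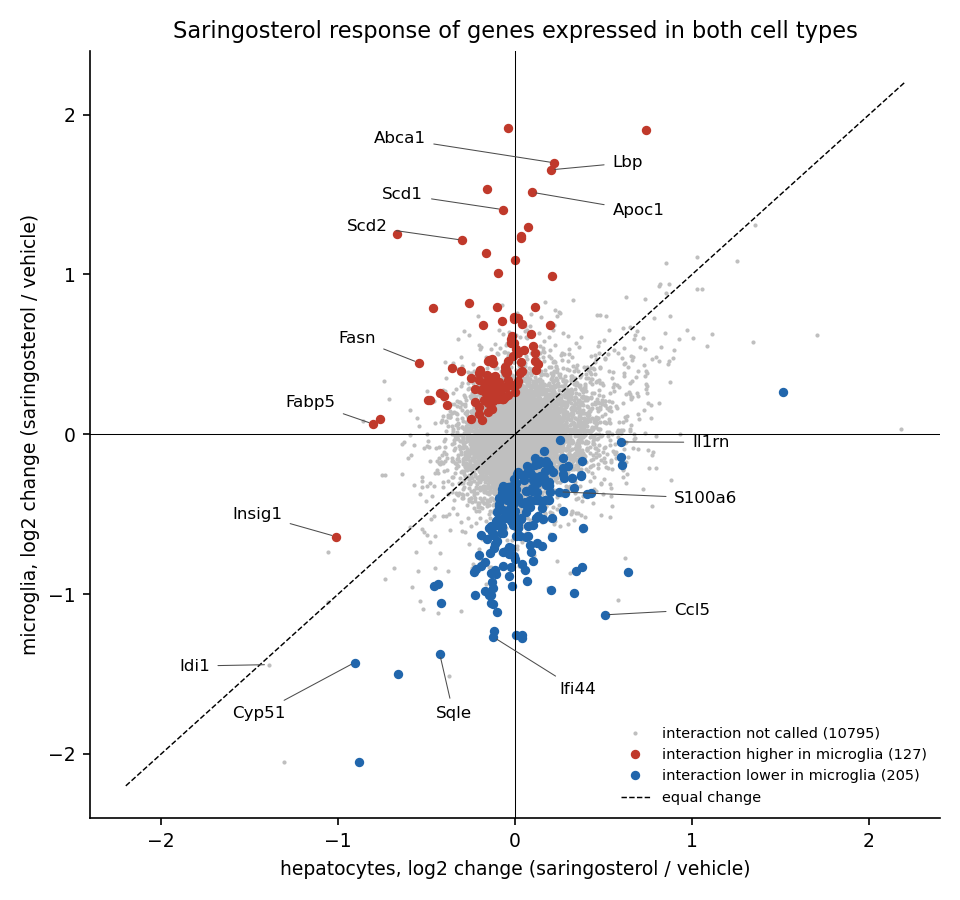
Log2 change with saringosterol over vehicle in hepatocytes (x axis) and in microglia (y axis) for the 11127 genes at 1 CPM or more in both; red and blue points are the 127 positive and 205 negative response differences, and the dashed line marks equal change. LXR targets such as Abca1 and Apoc1 sit high near the vertical axis, while Idi1 lies near the dashed line and Cyp51 and Sqle below it.

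Most LXR targets of the list used here were higher in saringosterol-treated microglia, and no listed target was called in hepatocytes. Genes outside the list were not counted, among them the sterol-responsive Rnf145, which was called higher in both cell types and is given further below. Of 18 genes in the list 16 were tested, and 13 rose and 1 fell in microglia, while 0 were called in hepatocytes by edgeR (6 at an unadjusted p under 0.05, and at most 1 higher and 3 lower under the alternatives run, DESeq2 included). The response difference was positive and called for 10 and negative for none. Over the 12 members expressed in both cell types the median log2 change was 0.61 in microglia and -0.09 in hepatocytes, against -0.01 and -0.01 over all genes expressed in both. Abca1, the pump that loads cholesterol onto apolipoprotein particles (ENSMUSG00000015243, chr4:53030787-53159895), stood at 2699, 2774 and 2484 CPM in saringosterol-treated microglia, against 826, 813 and 812 CPM in vehicle-treated microglia. In hepatocytes Abca1 stood at 53.2, 62.9 and 69.5 CPM with saringosterol, against 48.8, 54.8 and 56 CPM with vehicle. The microglial groups were far apart, and the hepatocyte groups overlapped. The log2 change was 1.70 ± 0.07 (SE) in microglia and 0.22 ± 0.07 in hepatocytes, with a response difference of 1.48 ± 0.10 (edgeR adjusted p = 2.4e-09).

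Apolipoproteins and a lipid transfer protein gave the same contrast. Apoc1, an apolipoprotein that liver makes in quantity, stood at 25.7, 25.3 and 28.1 CPM in saringosterol-treated microglia, against 8.35, 9.69 and 9.71 CPM in vehicle-treated microglia. Hepatocytes had 599, 604 and 529.8 CPM with saringosterol, against 528, 532 and 562 CPM with vehicle. Its low microglial level thus rose 2.86-fold while the high hepatocyte level showed overlapping groups (log2 changes 1.51 ± 0.08 in microglia and 0.10 ± 0.06 in hepatocytes; response difference 1.42 ± 0.09, edgeR adjusted p = 1.4e-11). Apoe, which carries lipid between brain cells, was 13290, 13280 and 12540 CPM in saringosterol-treated microglia, against 9562, 10420 and 10460 CPM in vehicle-treated microglia. In hepatocytes Apoe was 5229, 5371 and 5030 CPM with saringosterol, against 5966, 5240 and 5734 CPM with vehicle (log2 changes 0.36 ± 0.05 in microglia and -0.12 ± 0.05 in hepatocytes; response difference 0.48 ± 0.07). All 3 treated microglial libraries exceeded all 3 vehicle ones, and the hepatocyte groups overlapped. Pltp, the phospholipid transfer protein, had log2 changes of 1.01 ± 0.05 in microglia and -0.10 ± 0.07 in hepatocytes, the first of them called (response difference 1.11 ± 0.09, edgeR adjusted p = 9.8e-10).

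The receptor gene, its partner in fatty acid synthesis and the lipid-handling targets followed. Nr1h3, which encodes LXR alpha, was 31.9, 30.8 and 29.5 CPM in saringosterol-treated microglia, against 22.9, 26.4 and 23.4 CPM in vehicle-treated microglia. In hepatocytes Nr1h3 was 45.2, 46.6 and 47.3 CPM with saringosterol, against 52.5, 50.5 and 49.2 CPM with vehicle. The treated libraries were all above the vehicle ones in microglia and all below them in hepatocytes, where the change of -0.13 ± 0.07, against 0.34 ± 0.07 in microglia, did not pass the test (edgeR adjusted p = 0.45; response difference 0.47 ± 0.10, edgeR adjusted p = 0.006). Srebf1, the SREBP gene that drives fatty acid synthesis, was 181, 172 and 156 CPM in saringosterol-treated microglia, against 104, 106 and 107 CPM in vehicle-treated microglia. In hepatocytes Srebf1 was 80.8, 86.9 and 97.7 CPM with saringosterol, against 108, 91.2 and 102 CPM with vehicle (log2 changes 0.69 ± 0.07 in microglia and -0.18 ± 0.07 in hepatocytes; response difference 0.87 ± 0.10, edgeR adjusted p = 1.3e-06). Its microglial groups did not overlap and its hepatocyte groups did. Lpcat3, which puts polyunsaturated chains into phospholipids, had log2 changes of 0.33 ± 0.05 in microglia and -0.09 ± 0.05 in hepatocytes (response difference 0.42 ± 0.08). Lpl, the lipoprotein lipase, had 0.21 ± 0.05 in microglia and -0.49 ± 0.13 in hepatocytes, where its level was 1.32 to 2.57 CPM (response difference 0.71 ± 0.14). Without hepatocyte vehicle replicate 2, 3 members fell in hepatocytes, namely Srebf1 (-0.27), Apoe (-0.20) and Lpl (-0.56), and the response differences called still numbered 10.

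Not every LXR target could be compared. Abcg1, the second sterol exporter, rose by 0.96 ± 0.05 in microglia, at 787, 781 and 727 CPM with saringosterol, against 374, 399 and 406 CPM with vehicle, and Mylip, a ubiquitin ligase that limits sterol uptake, rose by 0.95 ± 0.07. Hepatocyte libraries held at most 0.212 CPM of Abcg1 and 0.215 CPM of Mylip, a handful of reads, so their response differences say nothing of the hepatocyte response. Abcg5 and Abcg8, which form the liver's sterol exporter, were at 0 in every microglial library and averaged 1.45 and 1.96 CPM in saringosterol-treated hepatocytes, against 1.57 and 2.31 CPM in vehicle-treated ones. Arl4c rose in microglia by 0.53 ± 0.07, with 0.30 ± 0.09 in hepatocytes and no called response difference (edgeR adjusted p = 0.38). Smpdl3a, a phosphodiesterase, was the member that fell in microglia (log2 changes -0.19 ± 0.05 in microglia and 0.06 ± 0.06 in hepatocytes).

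**Figure D2:**
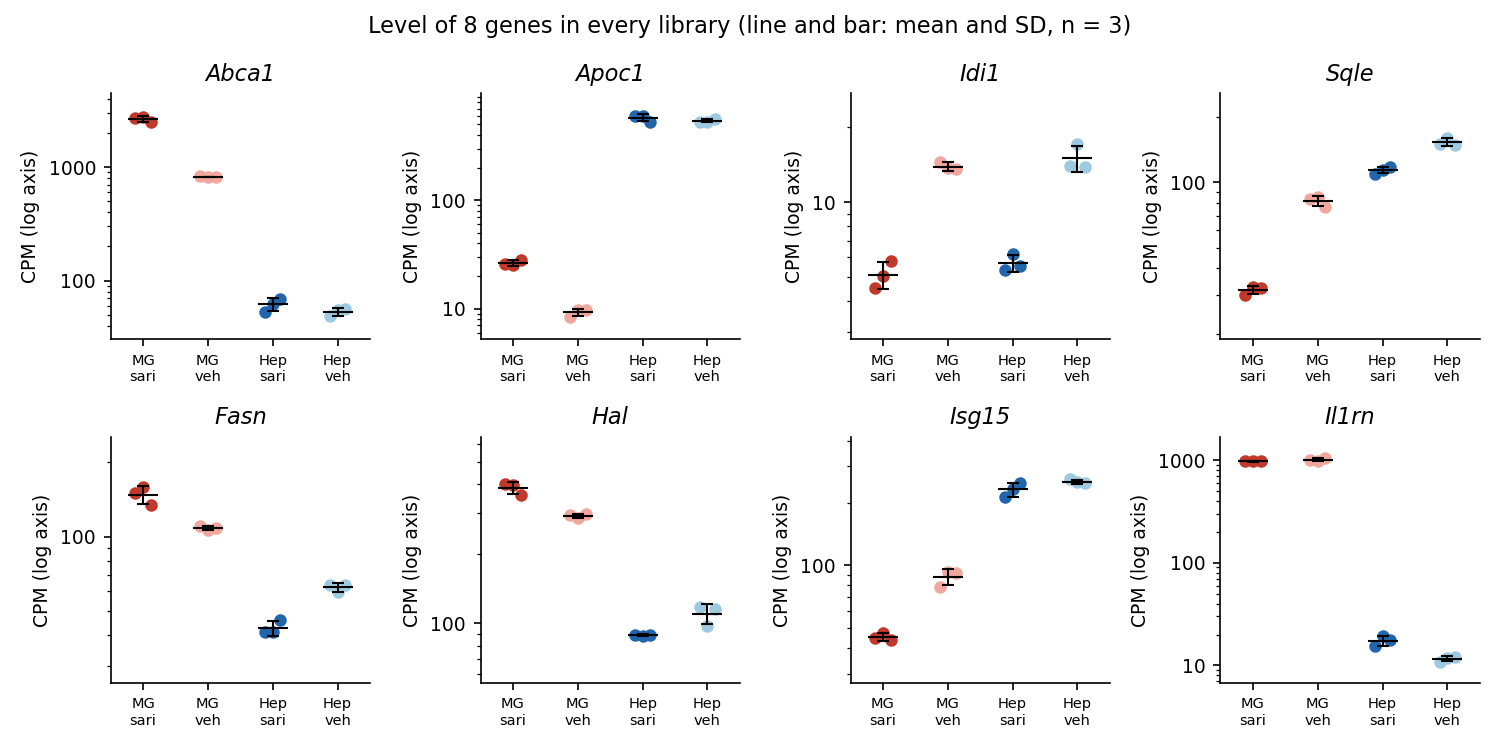
CPM of 8 genes in each of the 12 libraries, on log axes that differ between panels; points are libraries, and the black line and bar are the mean and SD of 3. MG is microglia, Hep hepatocytes, sari saringosterol and veh vehicle; Abca1 and Apoc1 are higher with saringosterol in microglia, Idi1 and Sqle are lower with saringosterol in both, Fasn and Hal go opposite ways, Isg15 is lower in microglia, and Il1rn is higher in hepatocytes.

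Most transcripts of cholesterol synthesis enzymes fell in both cell types, and 9 had a more negative change in microglia. All 21 genes of the list were expressed in both, and 18 fell in microglia and 13 in hepatocytes, the 13 all among the 18; none rose. The median log2 change was -0.85 in microglia and -0.42 in hepatocytes. The response difference was called as negative for 9 members and as positive for none.

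The enzymes that open the sterol branch were among those that fell further in microglia. Sqle, squalene epoxidase and a rate-limiting enzyme of the late pathway, was 30.1, 32.8 and 32.3 CPM in saringosterol-treated microglia, against 84.1, 85.2 and 77.2 CPM in vehicle-treated microglia. In hepatocytes Sqle was 109.9, 115 and 118 CPM with saringosterol, against 151, 161 and 149 CPM with vehicle, again with no overlap. The log2 change was -1.37 ± 0.06 in microglia and -0.43 ± 0.06 in hepatocytes, a response difference of -0.95 ± 0.08 (edgeR adjusted p = 7.1e-09). Fdft1, squalene synthase, changed by -1.50 ± 0.10 in microglia and -0.66 ± 0.08 in hepatocytes, and Cyp51, the lanosterol demethylase, by -1.43 ± 0.06 and -0.91 ± 0.06 (response differences -0.84 ± 0.12 and -0.52 ± 0.08). Msmo1, the C4 methyl oxidase, and Hsd17b7, the 3-ketosterol reductase, also fell in both and further in microglia. The log2 changes of Msmo1 were -0.95 ± 0.05 in microglia and -0.46 ± 0.05 in hepatocytes and those of Hsd17b7 -1.06 ± 0.10 in microglia and -0.42 ± 0.09 in hepatocytes (response differences -0.49 ± 0.07 and -0.64 ± 0.14).

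A further 3 enzymes, Sc5d, Tm7sf2 and Acat2, fell in microglia and were not called in hepatocytes, and their response differences were called. Sc5d, the lathosterol oxidase, was 21.8, 18.9 and 19.4 CPM in saringosterol-treated microglia, against 39.4, 39.1 and 42.1 CPM in vehicle-treated microglia. In hepatocytes Sc5d was 109.8, 107 and 109.6 CPM with saringosterol, against 113, 128 and 121 CPM with vehicle. Its groups did not overlap in either, but the hepatocyte change of -0.15 ± 0.06 missed the threshold (edgeR adjusted p = 0.31), whereas the microglial level was 0.498 times that with vehicle (response difference -0.86 ± 0.09, edgeR adjusted p = 2.8e-07). Tm7sf2, a sterol C14 reductase, had log2 changes of -1.01 ± 0.13 in microglia and -0.23 ± 0.10 in hepatocytes (response difference -0.78 ± 0.16), and Acat2, the cytosolic thiolase that opens the route, had -0.80 ± 0.08 in microglia and -0.17 ± 0.07 in hepatocytes (response difference -0.63 ± 0.11).

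For the other enzymes of the route the difference between the cell types did not pass the test. Idi1, the isopentenyl isomerase, was 4.5, 5.07 and 5.79 CPM in saringosterol-treated microglia, against 14.5, 13.7 and 13.5 CPM in vehicle-treated microglia. In hepatocytes Idi1 was 5.36, 6.2 and 5.53 CPM with saringosterol, against 14, 17.1 and 13.9 CPM with vehicle, with log2 changes of -1.44 ± 0.13 and -1.39 ± 0.12 and a response difference of -0.05 ± 0.18. Hmgcs1, which makes HMG-CoA and whose promoter is printed above, was 53.1, 52.4 and 51.5 CPM in saringosterol-treated microglia, against 95.5, 98.4 and 87 CPM in vehicle-treated microglia. In hepatocytes Hmgcs1 was 59.4, 66.1 and 61 CPM with saringosterol, against 91.8, 105 and 103 CPM with vehicle. It was lowered without overlap in both (log2 changes -0.84 ± 0.06 in microglia and -0.68 ± 0.06 in hepatocytes), and the response difference of -0.16 ± 0.09 was not called (edgeR adjusted p = 0.5). Fdps, the farnesyl diphosphate synthase, fell in both, with log2 changes of -0.74 ± 0.20 in microglia and -1.06 ± 0.19 in hepatocytes and a response difference not called (edgeR adjusted p = 0.7). Ggps1, which leads to the non-sterol geranylgeranyl branch, and Ebp, the sterol isomerase, were not called in either cell type (log2 changes 0.07 ± 0.10 in microglia and 0.11 ± 0.10 in hepatocytes for Ggps1, and -0.05 ± 0.07 in microglia and 0.04 ± 0.07 in hepatocytes for Ebp). With all 27 libraries of the series in 1 fit, 4 of the 9 response differences were called, and with 26 libraries, leaving out replicate 3 of saringosterol-treated bone marrow-derived macrophages, all 9 were.

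**Figure D3:**
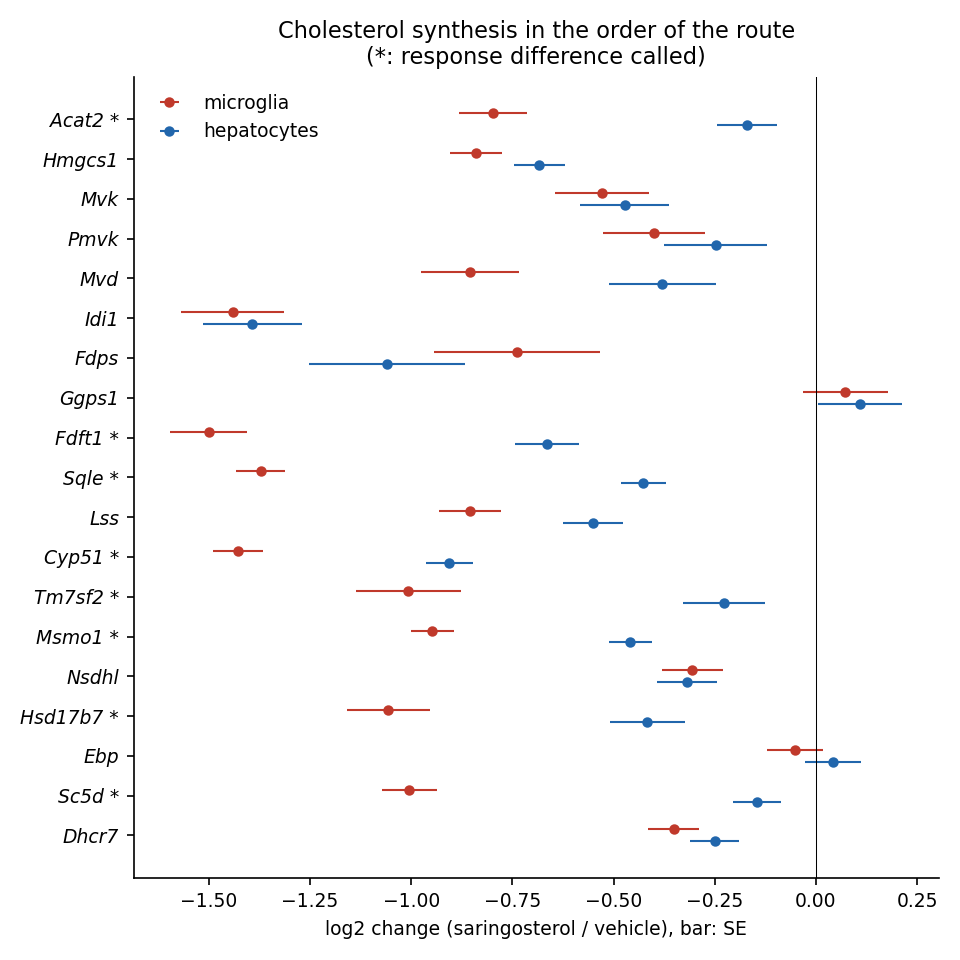
Log2 change with saringosterol over vehicle in microglia (red) and hepatocytes (blue) for 19 of the 21 cholesterol synthesis genes, listed in the order of the route from top to bottom, with bars for the SE. Stars mark the called response differences among these 19, which number 8 and include Fdft1 and Sqle, the first 2 enzymes of the sterol branch.

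Genes of sterol uptake and SREBP control included 4 that fell in both cell types. Of 15 tested, 7 fell and 1 rose in microglia, 6 fell in hepatocytes, and the response difference was called for 3 (2 positive and 1 negative). Srebf2, the gene of SREBP2 (ENSMUSG00000022463, chr15:82147181-82205379), stood at 94.8, 87.2 and 77.1 CPM in saringosterol-treated microglia, against 141, 142 and 148 CPM in vehicle-treated microglia. In hepatocytes it stood at 61.5, 62.1 and 68.7 CPM with saringosterol, against 97.8, 92.4 and 93.9 CPM with vehicle. Treated libraries were below all vehicle libraries in both, with log2 changes of -0.73 ± 0.06 in microglia and -0.56 ± 0.06 in hepatocytes and no called response difference (-0.17 ± 0.09, edgeR adjusted p = 0.43). Stard4, a cytosolic sterol carrier, also fell in both, with log2 changes of -0.95 ± 0.11 in microglia and -0.58 ± 0.11 in hepatocytes.

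Insig1, which retains SREBP in the endoplasmic reticulum, went against the pattern of the enzymes. It was 48.2, 44.7 and 45.6 CPM in saringosterol-treated microglia, against 70.1, 69.5 and 76.5 CPM in vehicle-treated microglia. In hepatocytes Insig1 was 37.4, 38.1 and 38 CPM with saringosterol, against 74.2, 76.5 and 78.2 CPM with vehicle. The groups did not overlap in either, and the fall was smaller in microglia (-0.64 ± 0.06 against -1.01 ± 0.06; response difference 0.37 ± 0.09, edgeR adjusted p = 0.014), a call lost with all 27 libraries in 1 fit, without saringosterol-treated microglial replicate 1 and without vehicle-treated microglial replicate 2. Soat2, a cholesterol acyltransferase, fell in microglia (log2 change -0.79 ± 0.14), with 0.10 ± 0.12 in hepatocytes (response difference -0.89 ± 0.19). Lrp1, a lipoprotein receptor of macrophages and liver, rose in microglia by 0.31 ± 0.06, with -0.03 ± 0.06 in hepatocytes (response difference 0.34 ± 0.08, edgeR adjusted p = 0.022, lost under 6 of 21 alternatives, without saringosterol-treated or vehicle-treated microglial replicate 1 or 2 among them).

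Fatty acid synthesis genes moved in both directions in microglia and downward in hepatocytes. Of 17 tested members 6 rose and 4 fell in microglia, whereas 4 fell and none rose in hepatocytes, and the response difference was called as positive for 5 and as negative for 1. Fasn, the fatty acid synthase (ENSMUSG00000025153, chr11:120805846-120824547), stood at 151, 159 and 134 CPM in saringosterol-treated microglia, against 111, 106 and 108 CPM in vehicle-treated microglia. In hepatocytes it stood at 40.9, 40.9 and 46 CPM with saringosterol, against 63.4, 59.4 and 63.9 CPM with vehicle. Every treated microglial library was above, and every treated hepatocyte library below, its vehicle libraries. The log2 change was 0.45 ± 0.06 in microglia (edgeR adjusted p = 6.7e-06) and -0.54 ± 0.06 in hepatocytes (edgeR adjusted p = 3.8e-06), a response difference of 0.99 ± 0.09 (edgeR adjusted p = 1.2e-08).

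The desaturases split between rises in microglia and falls in both cell types. Scd1, which makes oleate and palmitoleate, was 18, 16.5 and 14.8 CPM in saringosterol-treated microglia, against 6.1, 5.87 and 6.67 CPM in vehicle-treated microglia. Hepatocytes had 776, 763 and 776 CPM with saringosterol, against 780.1, 793 and 856 CPM with vehicle. The microglial groups were wide apart (log2 change 1.41 ± 0.08). Treated hepatocyte libraries were all just below the vehicle ones, at -0.07 ± 0.05, which did not pass the test (edgeR adjusted p = 0.61), and the response difference was 1.48 ± 0.10 (edgeR adjusted p = 1.4e-11). Scd2, the form that brain cells use, rose in microglia by 1.21 ± 0.05 at 1580, 1597 and 1510 CPM with saringosterol, against 704, 651 and 665 CPM with vehicle, with -0.30 ± 0.11 in hepatocytes at a low level (response difference 1.51 ± 0.12). Because Scd1 and Scd2 are near copies and the handling of reads that fit both is not known, their separate values are uncertain. Fads2 and Fads1, which make polyunsaturated chains, fell in both, Fads2 with log2 changes of -0.94 ± 0.08 in microglia and -0.44 ± 0.07 in hepatocytes (response difference -0.50 ± 0.10) and Fads1 with -0.27 ± 0.05 and -0.53 ± 0.05 (response difference 0.26 ± 0.08, edgeR adjusted p = 0.07).

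The other steps of the route were mixed. Elovl5, an elongase of polyunsaturated chains, and Acsl3, an acyl-CoA synthetase, rose in microglia by 0.39 ± 0.05 and 0.37 ± 0.08, with 0.04 ± 0.05 and -0.16 ± 0.08 in hepatocytes (response differences 0.36 ± 0.07 and 0.53 ± 0.11). Acly, which makes cytosolic acetyl-CoA, fell in both, with log2 changes of -0.21 ± 0.05 and -0.27 ± 0.05. Plin2, the coat of lipid droplets, was 1200, 1199 and 1144 CPM in saringosterol-treated microglia, against 1893, 2004 and 2094 CPM in vehicle-treated microglia. In hepatocytes Plin2 was 2184, 2122 and 2098 CPM with saringosterol, against 2515, 2379 and 2486 CPM with vehicle. All treated libraries were below all vehicle libraries in both, and the fall was larger in microglia (-0.76 ± 0.05 against -0.20 ± 0.05; response difference -0.55 ± 0.07, edgeR adjusted p = 2.2e-06). It was the only called response difference among 16 lipid droplet and lipolysis genes tested. Without hepatocyte vehicle replicate 2, the response differences of Mgll (0.56), the monoglyceride lipase, and Lipe (-0.88), the hormone-sensitive lipase, were also called. Mgll then rose in microglia (log2 change 0.22) and fell in hepatocytes (-0.33), both called. Lipe then rose in hepatocytes (0.70), while its microglial change of -0.18 was not called. Of 20 PPAR alpha targets and fatty acid oxidation genes, Cpt1a, the carnitine transferase that admits fatty acids to mitochondria, and Angptl4, an inhibitor of lipoprotein lipase, had called response differences (-0.38 ± 0.08 and -0.94 ± 0.19), both after a fall in microglia. Their log2 changes were -0.48 ± 0.06 in microglia and -0.10 ± 0.06 in hepatocytes for Cpt1a, and -1.06 ± 0.17 in microglia and -0.12 ± 0.08 in hepatocytes for Angptl4.

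Interferon-stimulated genes fell in microglia and had no call in hepatocytes, although hepatocytes expressed them. Of 18 tested, 17 fell in microglia, 0 were called in hepatocytes by edgeR (4 at an unadjusted p under 0.05, 0 also without hepatocyte vehicle replicate 2, and at most 1 in either direction under the alternatives run, DESeq2 included), and the response difference was negative and called for 13. The median log2 change over the 17 expressed in both was -0.74 in microglia and -0.12 in hepatocytes. Isg15, a ubiquitin-like antiviral modifier (ENSMUSG00000035692, chr4:156199455-156200796), stood at 44.7, 47.2 and 43.4 CPM in saringosterol-treated microglia, against 79, 92.8 and 92 CPM in vehicle-treated microglia. In hepatocytes it stood at 214.1, 233.8 and 249.2 CPM with saringosterol, against 260.2, 251.9 and 249.4 CPM with vehicle. Treated libraries were below vehicle ones in both cell types, narrowly so in hepatocytes, and the hepatocyte change did not pass the test (edgeR adjusted p = 0.38), with log2 changes of -0.96 ± 0.06 and -0.13 ± 0.06 and a response difference of -0.83 ± 0.09 (edgeR adjusted p = 2.8e-07).

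The factors that sustain interferon signalling were among them. Irf7, the transcription factor that amplifies interferon production, was 264, 254 and 237 CPM in saringosterol-treated microglia, against 471, 528 and 632 CPM in vehicle-treated microglia. In hepatocytes Irf7 was 309, 317 and 344 CPM with saringosterol, against 349, 360.1 and 332 CPM with vehicle. Stat2, a signal carrier of the interferon receptor, was 159, 159 and 138 CPM in saringosterol-treated microglia, against 257, 280.1 and 298 CPM in vehicle-treated microglia. Both were lower in every treated microglial library, and their hepatocyte groups overlapped. The log2 changes of Irf7 were -1.11 ± 0.08 in microglia and -0.10 ± 0.08 in hepatocytes (response difference -1.01 ± 0.11), and those of Stat2 were -0.87 ± 0.06 in microglia and -0.11 ± 0.06 in hepatocytes (response difference -0.76 ± 0.09).

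Effectors and sensors were lowered in the same way. Rsad2 (viperin), which halts viral replication, was 167, 189 and 169.6 CPM in saringosterol-treated microglia, against 267, 294 and 289 CPM in vehicle-treated microglia. In hepatocytes Rsad2 was 575, 679.6 and 662 CPM with saringosterol, against 586, 630.1 and 592 CPM with vehicle, lower in every treated microglial library and overlapping in hepatocytes (log2 changes -0.69 ± 0.06 in microglia and 0.08 ± 0.06 in hepatocytes; response difference -0.78 ± 0.08, edgeR adjusted p = 7.0e-07). Ifi44 had the largest response difference of the list, -1.15 ± 0.13, with log2 changes of -1.27 ± 0.10 in microglia and -0.12 ± 0.08 in hepatocytes. Ifit1, which binds viral RNA, had log2 changes of -1.05 ± 0.08 in microglia and -0.14 ± 0.08 in hepatocytes (response difference -0.91 ± 0.11), and Ifit2 had -1.01 ± 0.07 in microglia and -0.14 ± 0.12 in hepatocytes (response difference -0.87 ± 0.14). Ifit genes are near copies of one another, so that their separate values are uncertain. The RNA sensor Ddx58 had log2 changes of -0.62 ± 0.06 in microglia and -0.08 ± 0.06 in hepatocytes (response difference -0.54 ± 0.08), and the RNA sensor Ifih1 had -0.52 ± 0.07 in microglia and 0.12 ± 0.07 in hepatocytes (response difference -0.64 ± 0.10). Usp18, which removes Isg15 from proteins, had -0.74 ± 0.06 in microglia and -0.14 ± 0.06 in hepatocytes (response difference -0.60 ± 0.09). Cxcl10, a chemokine with low counts in microglia, was the member not called in either cell type.

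The calls of these genes changed with the libraries fitted together. With all 27 libraries of the series in 1 fit, 0 response differences and 1 fall in microglia were called for these 18 genes. The response difference of Irf7 was then -0.962, with an edgeR adjusted p of 0.707. The set of genes tested and the scaling also changed in that fit, and the cause of the lost calls was not tested. With 26 libraries, leaving out replicate 3 of saringosterol-treated bone marrow-derived macrophages, a setting chosen after seeing the data, 5 response differences and 16 falls were called. Leaving out any 1 of the 12 libraries left 12 to 14 response differences and 17 falls.

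Inflammatory genes could rarely be compared, since 6 of 20 tested were expressed in both cell types. Of these 20 cytokine and chemokine genes, 3 rose and 4 fell in microglia and 0 were called in hepatocytes by edgeR (4 at an unadjusted p under 0.05, and at most 1 under the alternatives run, DESeq2 included), and 1 response difference was called. Il1a and Il1b, the interleukin-1 alpha and beta genes, changed in opposite directions in microglia, Il1a to 46.4, 40 and 43.5 CPM with saringosterol, against 13.5, 12.6 and 11.5 CPM with vehicle and Il1b to 2.34, 3.13 and 4.22 CPM with saringosterol, against 11.3, 15.4 and 15.1 CPM with vehicle, and no hepatocyte library held more than 0.2505 CPM of either. Ccl5, a T cell attractant, was 23.7, 31.9 and 37.8 CPM in saringosterol-treated microglia, against 55.8, 65.2 and 83.3 CPM in vehicle-treated microglia. In hepatocytes Ccl5 was 6.24, 5.77 and 7.43 CPM with saringosterol, against 5.19, 4.51 and 4.01 CPM with vehicle. It was lower in every treated microglial library and higher in every treated hepatocyte library, but the hepatocyte change of 0.51 ± 0.23, against -1.13 ± 0.18 in microglia, was not called and the response difference of -1.64 ± 0.29 (edgeR adjusted p = 0.013) lost its call under 6 of 21 alternatives, without hepatocyte vehicle replicate 2 among them. Ccl2, the monocyte attractant that both cell types expressed, had log2 changes of 0.46 ± 0.07 in microglia and 0.23 ± 0.06 in hepatocytes (response difference 0.23 ± 0.09, edgeR adjusted p = 0.25).

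Of 18 acute phase genes 1 had a called response difference, and of 15 NF-kappaB subunits and feedback genes 2 had one, 1 positive and 1 negative. Over all genes tested the share was 2.09%, and whether such small counts exceed it was not tested. Lbp, which hands bacterial endotoxin to its receptor and was that acute phase gene (ENSMUSG00000016024, chr2:158306493-158332852), was 19.7, 20.2 and 17.7 CPM in saringosterol-treated microglia, against 5.59, 5.66 and 7.08 CPM in vehicle-treated microglia. In hepatocytes it was 16.7, 15.2 and 15.2 CPM with saringosterol, against 13.4, 14.1 and 13.5 CPM with vehicle. Both sets of treated libraries were above their vehicle libraries, with log2 changes of 1.65 ± 0.11 and 0.20 ± 0.10, only the microglial one called, and a response difference of 1.45 ± 0.15 (edgeR adjusted p = 2.3e-07). Tnfaip3 (A20), which shuts off NF-kappaB signalling, had log2 changes of 0.46 ± 0.06 in microglia and -0.04 ± 0.07 in hepatocytes, the first of them called (response difference 0.50 ± 0.09). Nfkbiz, an atypical inhibitor of NF-kappaB, had -0.76 ± 0.13 in microglia and -0.00 ± 0.12 in hepatocytes, with a fall called in microglia (response difference -0.76 ± 0.18, edgeR adjusted p = 0.018, lost under 6 of 21 alternatives, among them without microglial vehicle replicate 1, saringosterol-treated hepatocyte replicate 3 or hepatocyte vehicle replicate 1 or 3). The homeostatic microglia list fell for 4 and rose for 1 of 11 tested in microglia, Cx3cr1 to 17.7, 23.5 and 15.9 CPM with saringosterol, against 58.6, 49.8 and 55.7 CPM with vehicle, and 9 of the 11 were under 1 CPM in hepatocytes.

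Stress and growth genes differed for single members. Of 16 unfolded protein response genes 9 rose in microglia and 1, the chaperone Hsp90b1, in hepatocytes, and the response difference was called for 1, as negative. Hsp90b1 changed by 0.34 ± 0.05 in microglia and 0.24 ± 0.05 in hepatocytes. The called response difference was that of Ddit3 (CHOP), a factor of prolonged stress, at -0.61 ± 0.10 (log2 changes -0.46 ± 0.07 in microglia and 0.15 ± 0.07 in hepatocytes; edgeR adjusted p = 3.2e-04). Without hepatocyte vehicle replicate 2, the positive response differences of Pdia6 (0.27) and Calr (0.25), chaperones of the endoplasmic reticulum, were also called, and Pdia6 was called under 15 of 21 alternatives. Without that library the log2 changes were 0.32 in microglia and 0.05 in hepatocytes for Pdia6, and 0.27 and 0.02 for Calr. Of 17 amino acid response genes, 3 had called response differences, all after a fall in microglia. Trib3 had log2 changes of -0.56 ± 0.07 in microglia and 0.02 ± 0.06 in hepatocytes (response difference -0.58 ± 0.09), Nupr1 had -0.41 ± 0.08 in microglia and 0.12 ± 0.08 in hepatocytes (response difference -0.53 ± 0.11, a call lost without hepatocyte vehicle replicate 3) and Asns had -0.26 ± 0.05 in microglia and 0.04 ± 0.05 in hepatocytes (response difference -0.30 ± 0.07, a call lost under 13 of 21 alternatives, without hepatocyte vehicle replicate 2 among them). Vegfa, the vessel growth factor, was 15.4, 15.7 and 14.6 CPM in saringosterol-treated microglia, against 9.3, 8.84 and 9.43 CPM in vehicle-treated microglia. In hepatocytes Vegfa was 33.9, 41 and 42.8 CPM with saringosterol, against 38.8, 38.8 and 38.9 CPM with vehicle. Its microglial groups were separate and its hepatocyte groups overlapped (log2 changes 0.73 ± 0.10 in microglia and 0.02 ± 0.08 in hepatocytes; response difference 0.71 ± 0.12, edgeR adjusted p = 7.2e-04).

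Mcm2, a subunit of the replicative helicase, rose in microglia by 0.40 ± 0.08 with -0.20 ± 0.08 in hepatocytes (response difference 0.60 ± 0.11). Of 16 cell cycle genes 3 rose in microglia (6 without hepatocyte vehicle replicate 2, and 1 to 6 over all alternatives run), 0 were called in hepatocytes by edgeR (3 at an unadjusted p under 0.05, and at most 2 under the alternatives run, DESeq2 included), and 2 response differences were called. The median log2 change over the 9 members expressed in both was 0.25 in microglia and -0.21 in hepatocytes. Among immediate early genes Fos fell in microglia, with log2 changes of -0.51 ± 0.07 in microglia and 0.13 ± 0.08 in hepatocytes (response difference -0.64 ± 0.11), and Myc rose in microglia, with 0.38 ± 0.06 in microglia and -0.05 ± 0.05 in hepatocytes (response difference 0.44 ± 0.08). Of 18 glycolysis and hypoxia genes Pfkp, a phosphofructokinase, had the negative response difference, -0.45 ± 0.08, with log2 changes of -0.24 ± 0.06 in microglia and 0.22 ± 0.06 in hepatocytes; that of Vegfa, of the same list, was positive, and without hepatocyte vehicle replicate 2 the list had 3 positive response differences and 6 falls in hepatocytes. Among 14 tested genes of bile acid synthesis and transport, 0 response differences were called by edgeR or by any alternative run, DESeq2 included, and 1 had an unadjusted p under 0.05.

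**Figure D4:**
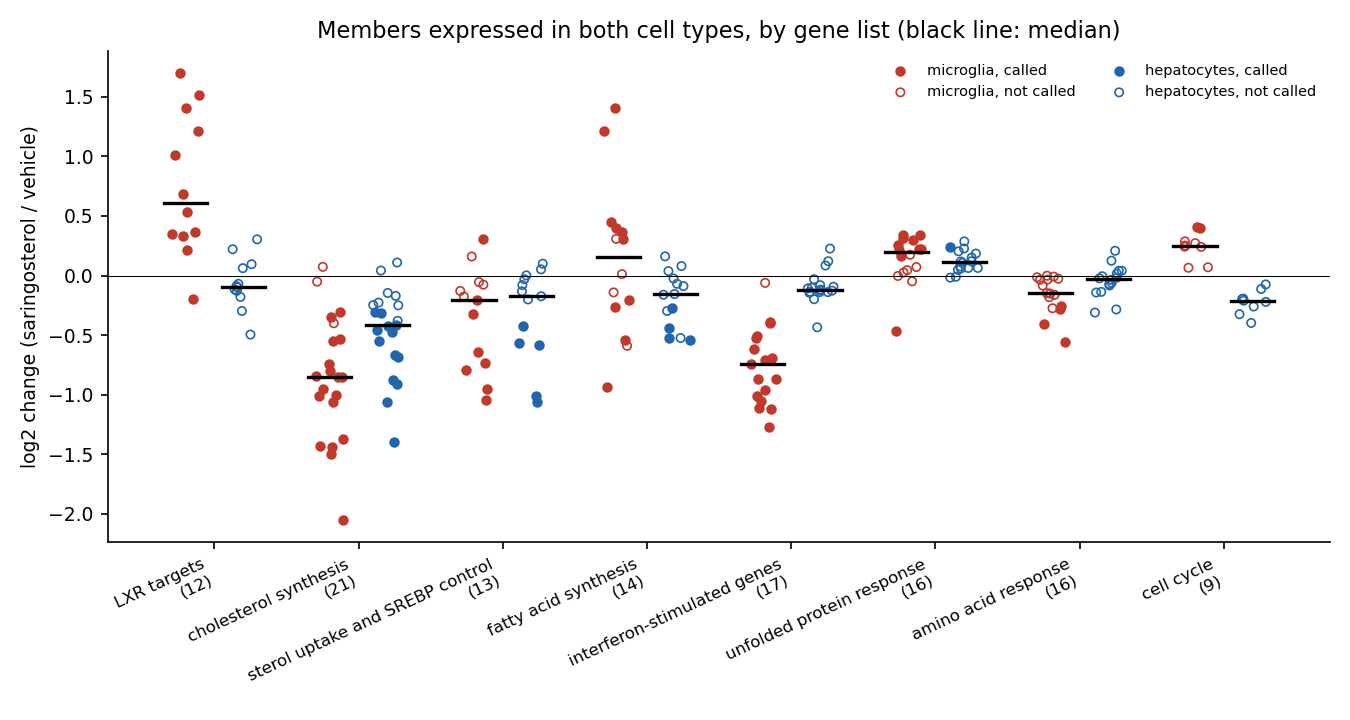
Log2 change with saringosterol over vehicle (y axis) of list members expressed in both cell types (numbers in brackets), in microglia (red) and hepatocytes (blue); filled points were called in that cell type and black lines are medians. LXR targets and interferon-stimulated genes have filled points in microglia and none in hepatocytes, with microglial medians of 0.61 and -0.74, and cholesterol synthesis has filled points below 0 in both.

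Fasn shared its opposed calls with 2 other genes. Hal, the histidine ammonia-lyase (ENSMUSG00000020017, chr10:93488768-93519304), was 402, 398 and 359.9 CPM in saringosterol-treated microglia, against 295, 287 and 298 CPM in vehicle-treated microglia. In hepatocytes it was 89.1, 88.3 and 89.2 CPM with saringosterol, against 117, 97.2 and 115 CPM with vehicle. The groups were separate in both, and hepatocyte vehicle replicate 2 was the lowest of its group (log2 changes 0.40 ± 0.06 and -0.31 ± 0.06; response difference 0.71 ± 0.08, edgeR adjusted p = 2.2e-06). S100a6, a calcium-binding protein, went the other way, at 79.5, 77 and 82.6 CPM in saringosterol-treated microglia, against 105, 98.7 and 103 CPM in vehicle-treated microglia. In hepatocytes S100a6 was 148, 139.5 and 135 CPM with saringosterol, against 122, 118 and 115 CPM with vehicle. It was lower in every treated microglial library and higher in every treated hepatocyte library (log2 changes -0.36 ± 0.06 and 0.25 ± 0.05; response difference -0.61 ± 0.08, edgeR adjusted p = 6.6e-06).

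A few genes expressed in both moved in hepatocytes and were not called in microglia; they were singled out after their values were seen. Il1rn, the secreted interleukin-1 receptor antagonist, was 972, 974 and 990.5 CPM in saringosterol-treated microglia, against 998, 989 and 1049 CPM in vehicle-treated microglia. Hepatocytes had 15.4, 19.3 and 17.7 CPM with saringosterol, against 10.8, 11.8 and 12.1 CPM with vehicle, every treated library above every vehicle one. Its hepatocyte rise of 0.60 ± 0.07 on the log2 scale, against -0.05 ± 0.05 in microglia, gave a response difference of -0.64 ± 0.09 (edgeR adjusted p = 2.3e-05). Fabp5, a carrier of fatty acids and retinoids, fell in hepatocytes to 11.7, 8.19 and 8.64 CPM with saringosterol, against 16.1, 15.5 and 17.8 CPM with vehicle, while its microglial groups, at 1468, 1331 and 1264 CPM with saringosterol, against 1240, 1276 and 1370 CPM with vehicle, overlapped (log2 changes 0.06 ± 0.08 in microglia and -0.80 ± 0.11 in hepatocytes; response difference 0.87 ± 0.13, edgeR adjusted p = 7.5e-04). Lpin1, a phosphatidate phosphatase and coactivator, and Paox, a polyamine oxidase, fell in hepatocytes. The log2 changes of Lpin1 were 0.18 ± 0.08 in microglia and -0.38 ± 0.08 in hepatocytes and those of Paox 0.22 ± 0.10 in microglia and -0.48 ± 0.09 in hepatocytes (response differences 0.56 ± 0.11 and 0.70 ± 0.13). Fam107b rose in hepatocytes by 0.25 ± 0.05, with -0.03 ± 0.06 in microglia, and its response difference of -0.29 ± 0.07 lost its call under 17 of 21 alternatives. The mitochondrial transfer RNA gene mt-Tq, at most 6.29 CPM, is of a class that oligo-dT priming is not made for, and its response difference of -1.25 ± 0.33 (log2 changes 0.27 ± 0.23 in microglia and 1.51 ± 0.24 in hepatocytes) lost its call under 15 of 21, without hepatocyte vehicle replicate 2 among them as for Fam107b.

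The largest positive response differences among genes expressed in both also included Card14, Car2, Eepd1 and Sgsm1, which no list held, and Cd5l, which was in the list of Kupffer cell markers. Card14, a scaffold that activates NF-kappaB in skin, was 3.84, 3.19 and 2.03 CPM in saringosterol-treated microglia, against 0.731, 0.848 and 0.822 CPM in vehicle-treated microglia. In hepatocytes Card14 was 5.27, 4.69 and 5.21 CPM with saringosterol, against 5.34, 5.21 and 5.02 CPM with vehicle. Treated microglia were above vehicle and the hepatocyte groups overlapped (log2 changes 1.92 ± 0.23 in microglia and -0.04 ± 0.18 in hepatocytes; response difference 1.96 ± 0.29, edgeR adjusted p = 9.9e-05). Car2, a carbonic anhydrase, was 28.3, 24.3 and 26.5 CPM in saringosterol-treated microglia, against 10.8, 9.81 and 12.6 CPM in vehicle-treated microglia. In hepatocytes Car2 was 2.45, 2.15 and 1.65 CPM with saringosterol, against 2.85, 3.58 and 3.43 CPM with vehicle, higher in one and lower in the other without overlap, though the hepatocyte change was not called (edgeR adjusted p = 0.059; log2 changes 1.25 ± 0.12 in microglia and -0.67 ± 0.16 in hepatocytes; response difference 1.92 ± 0.20). Without hepatocyte vehicle replicate 2 its hepatocyte fall was called (-0.63, edgeR adjusted p = 0.0472). Cd5l, a secreted macrophage protein, rose in microglia by 1.53 ± 0.21, with -0.16 ± 0.26 in hepatocytes, where it had 0.684 to 1.59 CPM (response difference 1.69 ± 0.34). Eepd1, which is known as an LXR target in macrophages, rose in microglia by 1.13 ± 0.06, with -0.17 ± 0.06 in hepatocytes (response difference 1.30 ± 0.09, edgeR adjusted p = 1.4e-11). Sgsm1 had log2 changes of 0.79 ± 0.19 in microglia and -0.46 ± 0.11 in hepatocytes, the first of them called (response difference 1.25 ± 0.22), and its hepatocyte fall was called without hepatocyte vehicle replicate 2 (-0.53, edgeR adjusted p = 0.0196).

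At the negative end stood Cxcl13, a B cell attractant, the cell surface protein gene Ly6a, the interferon-induced GTPase genes Tgtp1 and Tgtp2, Flt4, a growth factor receptor of lymphatic vessels, Trim30d, Gm4951 and AW112010. Their response differences lay between -1.50 ± 0.33 for Cxcl13 and -1.18 ± 0.17 for AW112010. Tgtp1 was 1.18, 1.78 and 2.25 CPM in saringosterol-treated microglia, against 3.51, 4.57 and 4.52 CPM in vehicle-treated microglia. In hepatocytes Tgtp1 was 57.9, 57 and 58.2 CPM with saringosterol, against 56.8, 60.2 and 51.6 CPM with vehicle, lower in every treated microglial library and overlapping in hepatocytes (log2 changes -1.27 ± 0.16 in microglia and 0.04 ± 0.09 in hepatocytes; response difference -1.31 ± 0.19, edgeR adjusted p = 4.7e-05); it and Tgtp2 are near copies and their values uncertain. All 8 fell in microglia, by log2 changes between -1.27 ± 0.16 for Tgtp1 and -0.83 ± 0.12 for Gm4951, and none was called in hepatocytes, where the changes lay between 0.01 ± 0.09 for Tgtp2 and 0.64 ± 0.24 for Cxcl13. Microglial and hepatocyte changes were -0.86 and 0.64 for Cxcl13, -0.99 and 0.33 for Ly6a, and -1.25 and 0.04 for Flt4. They were -1.26 and 0.01 for Tgtp2, -0.86 and 0.35 for Trim30d, -0.83 and 0.38 for Gm4951, and -0.98 and 0.20 for AW112010. The response difference call of Cxcl13 was lost under 8 of 21 alternatives, without hepatocyte vehicle replicate 2 among them, and that of Flt4 under 5 of 20. The microglial groups of Cxcl13 overlapped, at 3.436, 4.915 and 8.409 CPM with saringosterol, against 7.534, 10.84 and 12.08 CPM with vehicle. Its microglial fall was also not called without hepatocyte vehicle replicate 2 (edgeR adjusted p = 0.0664). Flt4 averaged 0.683 CPM in saringosterol-treated and 1.63 CPM in vehicle-treated microglia.

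Calls among genes of 1 cell type rest on a handful of reads in the other. Of genes expressed in microglia only, 21 of 1728 (1.22% of those tested) had a called response difference, and of those in hepatocytes only, 16 of 1501 (1.07%). Ms4a4c, a membrane protein gene of myeloid cells, was 11.9, 13.9 and 15.1 CPM in saringosterol-treated microglia, against 33.1, 40 and 50.9 CPM in vehicle-treated microglia, and Napsa, an aspartic protease, fell there (log2 change -0.45 ± 0.10); hepatocytes held at most 0.342 CPM of either. Spic, a transcription factor of red pulp macrophages, and B430306N03Rik were at 0 in all 3 treated hepatocyte libraries and at no more than 0.187 CPM in vehicle ones. Hkdc1, Phldb2, S1pr5 and Gstt1 were hepatocyte genes whose microglial libraries held at most 0.757 CPM. For these genes the fitted response difference depends on how counts near 0 are treated, and none is given here.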

How the data were processed

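Gene counts of 12 libraries were taken from the table the authors deposited, which holds raw counts per gene in whole numbers on 55774 lines for 55487 identifiers, 168 of them on several identical lines, of which 1 was kept. 0 counts differed from the deposited files of single libraries. Reads were demultiplexed with bcl2fastq, aligned to GRCm38 with STAR 2.5.1a and counted with featureCounts 1.4.6-p5 of Subread, per the submitters' processing notes; RNA was isolated with a Zymo kit and the SMARTer Ultra Low kit, primed with oligo-dT, gave the libraries, per the labels' protocols. Annotation, strand setting and the handling of reads that fit several places are not stated in those sources, which leaves values of near copies and of overlapping genes uncertain.

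In R 4.3.3, genes were filtered with edgeR 4.0.16 (filterByExpr by group), scaled by TMM over the 12 libraries and fitted with robust quasi-likelihood dispersions and 4 group means. The response difference and both responses are contrasts of that fit, with Benjamini-Hochberg adjustment over 17874 genes; the SE is the absolute log2 change divided by the square root of F. An earlier account of these data fitted all 27 libraries, which is an alternative here. DESeq2 1.42.0 and limma 3.58.1 (voom), other scalings and filters, a replicate block and leaving out each library were also tried. Data for the response difference over 17874 genes were also simulated, with changes planted in treated microglia alone and only in genes expressed in both cell types. Of 100 genes changed by 0.5 on the log2 scale 57% were recovered, and of 100 changed by 1, 88%, with 6 false calls. Noise was drawn independently from the fitted dispersions without any outlying library. These rates therefore do not cover genes near 0 in 1 cell type or the changes seen on leaving out single libraries. Pairs of replicates differed beyond counting noise, at 3.77 to 11.6 chi-square units per degree of freedom.

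A gene counts as expressed in a cell type at a mean of at least 1 CPM over its 6 libraries. Named genes were the 10 largest positive and 10 largest negative called response differences among genes expressed in both, the 5 largest among genes of each single cell type, genes called in opposite directions, the 6 with the largest changes in a shared direction, and up to 6 members of each list with the smallest p plus members needed to read it. Il1rn, Fabp5, Lpin1, Paox and Fam107b, and the genes in the closing observations, were chosen after their values were seen. The members and lists were chosen with earlier results of these data known. Some genes of these lists, counted in the totals, are not reported here.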

Additional observations from a re-analysis of the deposited data

Results flagged for a closer look

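The test of the difference between the microglial and the hepatocyte response called 373 genes over all genes tested. For 3 of them the responses were called in opposite directions, and their response differences were 0.99 for Fasn, 0.71 for Hal and -0.61 for S100a6 on the log2 scale. A further 6 genes expressed in both cell types were called in hepatocytes and in the response difference but not in microglia. Their response differences were -0.64 for Il1rn, 0.87 for Fabp5, 0.70 for Paox, 0.56 for Lpin1, -0.29 for Fam107b and -1.25 for mt-Tq, and the calls of Fam107b and mt-Tq were the least stable of the 6, lost under 17 and 15 of 21 alternatives.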

How the results depend on the processing

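Main counts were 373 response differences, 1143 microglial calls, 65 hepatocyte calls, 3 genes in opposite directions and 33 in the same direction. Leaving out 1 library gave 260 to 597, 780 to 1305, 48 to 512, 2 to 29 and 25 to 80. All 27 libraries in 1 fit gave 224 response differences, 690 microglial calls, 1 opposite and 21 same; 26 libraries, chosen after seeing the data, gave 115 hepatocyte calls. DESeq2 gave 665 response differences, 436 hepatocyte calls, 20 opposite and 73 same, and no filter on low counts gave 370 hepatocyte calls, 15 opposite and 67 same. Hepatocyte calls were 246 with each cell type fitted alone (8 opposite), 101 with DESeq2's size factors in edgeR (6 opposite) and 141 with limma-voom. TMM within each cell type and a filter at 1 CPM in both each gave 5 opposite. The cause was not tested. With the replicate number as a block within cell type there were 273 response differences (255 shared) and 21 genes in the same direction. Same-numbered libraries correlated at -0.16, -0.039 and -0.284 in microglia and 0.011, 0.006 and 0.02 in hepatocytes. These values gave no sign that the numbers pair the libraries, but with 3 libraries a group they cannot exclude a weak pairing. In microglia some differently numbered libraries correlated more, treated replicate 1 with vehicle replicate 3 at 0.202 and treated replicate 3 with vehicle replicate 1 at 0.22. The block by number does not model such a crossed order, and what these libraries share was not tested. Of 90 named genes with a called response difference, 31 kept it under every alternative run, 56 lost it with 27 libraries and 31 under another setting, and 0 of 198 named genes reversed. With 3 libraries a group, counts move with single libraries, and genes near 0 in 1 cell type carry no comparison.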

Other observations

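A further 6 genes, which no list held and which were chosen after their values were seen, had called response differences in edgeR. Each of these calls was lost with all 27 libraries in 1 fit, at adjusted p-values of 0.25 to 0.727. Of the 7 MHC class II genes that a list did hold, 0 response differences were called by edgeR (1 at an unadjusted p under 0.05, and at most 1 under the alternatives run, DESeq2 included). B2m, the light chain of MHC class I, was 3000, 2846 and 3145 CPM in saringosterol-treated microglia, against 3596, 3558 and 3618 CPM in vehicle-treated microglia. In hepatocytes B2m was 2563, 2463 and 2357 CPM with saringosterol, against 2154, 2412 and 2120 CPM with vehicle. It was lower in every treated microglial library, and the hepatocyte groups overlapped (log2 changes -0.26 ± 0.05 in microglia and 0.14 ± 0.05 in hepatocytes; response difference -0.40 ± 0.07, edgeR adjusted p = 8.6e-04). Without hepatocyte vehicle replicate 2, B2m was called higher in hepatocytes (0.17, edgeR adjusted p = 0.0407). H2-K1, a class I heavy chain with near copies, had log2 changes of -0.40 ± 0.05 in microglia and -0.01 ± 0.05 in hepatocytes, and Tapbp, which loads peptides onto class I, had -0.41 ± 0.05 and -0.03 ± 0.05 (response differences -0.38 ± 0.08 and -0.38 ± 0.07). The interferon-induced GTPase gene Irgm1 had log2 changes of -0.53 ± 0.06 in microglia and -0.02 ± 0.06 in hepatocytes (response difference -0.51 ± 0.08), and the GTPase gene Igtp had -0.69 ± 0.07 in microglia and -0.12 ± 0.06 in hepatocytes (response difference -0.57 ± 0.09). Bst2, which tethers budding viruses, had -0.39 ± 0.05 in microglia and -0.04 ± 0.05 in hepatocytes (response difference -0.36 ± 0.07).

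The 4 genes that rose in both cell types were Hsp90b1, Abcb4, Rnf145 and Slc40a1. Abcb4, the phospholipid exporter of bile, was 36.1, 32.3 and 35 CPM in saringosterol-treated microglia, against 23.7, 23 and 24.1 CPM in vehicle-treated microglia. In hepatocytes Abcb4 was 40.3, 49.5 and 44.5 CPM with saringosterol, against 36, 30.7 and 37.9 CPM with vehicle, and the groups did not overlap in either (log2 changes 0.55 ± 0.09 in microglia and 0.36 ± 0.08 in hepatocytes). Its hepatocyte call (edgeR adjusted p = 0.039) was lost under 10 of 22 alternatives, without hepatocyte vehicle replicate 2 (0.25, edgeR adjusted p = 0.0987) and with the replicate number as a block among them. Those of Hsp90b1 and Slc40a1 were lost under 8 and 6 of 22, and that of Rnf145 under none. Rnf145, a sterol-responsive ubiquitin ligase that the list of LXR targets did not hold, changed by 0.59 ± 0.07 in microglia and 0.50 ± 0.08 in hepatocytes. The hepatocyte counts of that list therefore do not cover it. Slc40a1, the iron exporter ferroportin, changed by 0.30 ± 0.05 in microglia and 0.26 ± 0.05 in hepatocytes. No response difference was called for Abcb4, Rnf145 or Slc40a1 (edgeR adjusted p = 0.56, 0.82 and 0.88).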
